A study of Mus musculus with 16 samples.

Results

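The Eph receptors and ephrins, the Slits and their Robo receptors, and the netrins with the Unc5 and DCC family receptors were followed through 16 RNA-seq libraries of primary mouse hippocampal cultures. The set holds 39 genes, taken by symbol from a fixed list, and each of them was found among the 55385 gene identifiers of the files. It is made up of 9 EphA receptors, 5 EphB receptors, 5 ephrin-A ligands, 3 ephrin-B ligands, 3 Slits, 4 Robo receptors, 2 netrins, 2 netrin-Gs, 4 Unc5 receptors and 2 receptors of the DCC family. The cultures came from newborn C57Bl/6N mice and were infected with recombinant adeno-associated virus carrying either a control shRNA (Control-shRNA) or an shRNA against Dnmt3a1, the long isoform of the de novo DNA methyltransferase Dnmt3a (Dnmt3a1-shRNA2), in each case expressed from a U6 promoter beside a GFP reporter. Both shRNA conditions were harvested either in baseline or after 4 h of bicuculline, a blocker of GABA-A receptors that releases synchronous bursts of synaptic activity, which gave 4 groups of 4 libraries. The knockdown rests on a single shRNA, so the loss of Dnmt3a1 and other effects of that construct cannot be told apart. The paper describes the libraries of a group as independent neuronal preparations, which the sample labels do not state. If they were not, the p-values below measure only the spread between these libraries.

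Eph receptors are receptor tyrosine kinases that bind membrane-anchored ephrins on neighbouring cells, and both partners signal, so that contact can repel or stabilise growth cones and dendritic spines. EphA receptors mainly bind the lipid-anchored ephrin-As and EphB receptors mainly the transmembrane ephrin-Bs, with EphA4 accepting both. Slits are secreted repellents read by Robo receptors, while netrin-1 attracts axons through DCC and repels them through Unc5 receptors. In the hippocampus these molecules shape the wiring of layers during development, and several of them remain at mature synapses, where EphB2 associates with NMDA receptors and netrin-Gs bind postsynaptic leucine-rich repeat partners.

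The libraries held 28912697 to 29586355 counted read pairs each. Mitochondrial genes took 2.80 to 4.75% of them in Control-shRNA baseline, 3.34 to 5.86% with bicuculline, 2.73 to 5.99% in Dnmt3a1-shRNA2 baseline and 3.58 to 6.60% with bicuculline, and the part of this share in the results was not tested. Dnmt3a, the targeted gene, stood at 293 to 324 CPM (counts relative to the library's total after TMM scaling) in Control-shRNA baseline and at 39.4 to 48 CPM after the knockdown, a log2 fold change of -2.81 ± 0.06 (SE). Fos and Npas4, genes induced by synaptic activity, rose with bicuculline in both shRNA conditions. Summed levels of 6 neuronal markers lay between 5500 and 7314 CPM over all libraries, those of 8 astrocyte markers between 701 and 1084 CPM, those of 7 endothelial and mural markers between 9.27 and 18.3 CPM and those of 6 microglial markers between 1.89 and 4.91 CPM. Calls rest on edgeR's quasi-likelihood test over 17222 genes and required a log2 fold change beyond 0.5 in either direction with an adjusted p below 0.05. Of the 39 members 37 passed the filter on low counts. Epha1, an Eph receptor of epithelia, had 1 to 9 counts per library, and Robo4, the endothelial Robo, had 0 to 3, and neither was tested.

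Per transcript length, the neuronal cultures held an ephrin-B, a netrin-G and an ephrin-A at the top of the set. In Control-shRNA baseline the ephrin-B ligand Efnb3 had the highest level, 205 ± 15.9 TPM (abundance per transcript length and library total, mean ± SD, n = 4 here and below), followed by the netrin-G Ntng2 at 142 ± 3.84 TPM and the ephrin-A Efna3 at 107 ± 10.9 TPM. The ranges of these 3 did not overlap, while that of Efna3 met that of Epha5, the next below it. In order there followed the receptors Epha5 (94.5 ± 9.18 TPM), Neo1 (78.5 ± 2.93 TPM), Unc5a (76.9 ± 5.58 TPM) and Epha4 (71.9 ± 11.2 TPM), of which the last 3 differed by less than their spread. In all, 26 members were at 10 TPM or above, 9 lay from 1 to 10 TPM and 4 lay under 1 TPM.

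The families differed in how evenly their members shared this level. Efnb3 made up 76% of the summed ephrin-B level in Control-shRNA baseline, Efna3 made up 76.4% of the ephrin-A level, Ntng2 86.6% of the netrin-G level and Neo1 84.7% of the DCC family level. EphA receptors were spread more widely, with Epha5 leading at 36.5%. Secreted netrins were low, at 4.79 ± 0.975 TPM for Ntn1, the classical attractant, and 6.67 ± 1.07 TPM for Ntn4. All 3 Slits were present, Slit1 at 59.3 ± 2.69 TPM, Slit3 at 46.4 ± 4.44 TPM and Slit2 at 26.6 ± 4.34 TPM, beside their receptors Robo2 at 48.4 ± 5.12 TPM and Robo1 at 29.6 ± 3.7 TPM. Robo3 was low, at 1.02 ± 0.598 TPM.

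**Figure D1:**
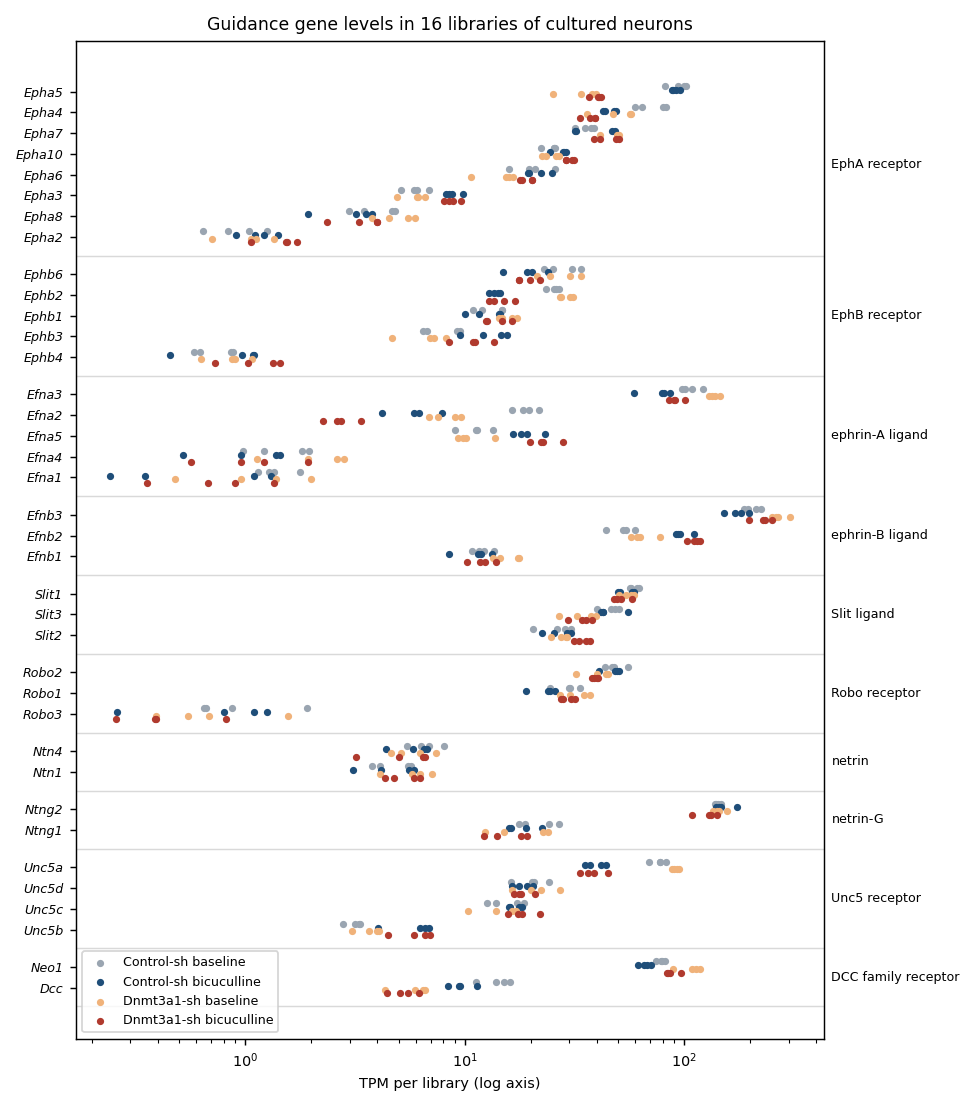
TPM of the 37 tested members in each of the 16 libraries on a log axis, 1 point per library, grouped by family and ordered within a family by the mean in Control-shRNA baseline. Efnb3, Ntng2 and Efna3 lie furthest to the right, and the points of Epha5, Dcc and Efna2 in the Dnmt3a1-shRNA2 groups lie to the left of their controls.

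The first comparison asked which guidance genes responded to 4 h of synaptic activity in cells that carried the control shRNA. Bicuculline raised the ephrins Efna5 and Efnb2, the receptors Epha2, Epha3 and Ephb3, and the netrin receptor Unc5b, and it lowered the ephrin Efna2 and the receptors Unc5a and Ephb2. Thus 6 of the 37 tested members were called higher and 3 lower, while 28 were not called. Over all genes tested, 10.8% were called higher and 11.1% lower, so the members' shares were of the same order. Their median log2 fold change was 0.11, against 0.01 over all genes, and their median absolute log2 fold change was 0.31 against 0.27. With scaling by library size alone 6 members were called higher and 5 lower, and on log2(TPM + 1) 4 were called higher and 5 lower. As these are bulk cultures, fewer cells of a type and less RNA per cell cannot be told apart in any of the differences below.

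The ephrins Efna5 and Efnb2 were among the largest rises, beside Unc5b. Efna5 (chr17:62604184-62881317 of GRCm38, minus strand) is a lipid-anchored ligand that repels axons in topographic maps. It stood at 14.5, 14.5, 15.8 and 15.5 CPM in the 4 baseline libraries and at 32.7, 39.2, 32.4 and 31.6 CPM with bicuculline. The ranges were far apart, all stimulated libraries being higher, and the log2 fold change was 1.17 ± 0.09 (SE, adjusted p = 2.38e-08).

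Efnb2 (chr8:8617434-8661242, minus strand) is a transmembrane ligand that signals back into the cell that carries it. It went from 92.5, 98.3, 103 and 102 CPM in baseline to 237, 195, 191 and 237 CPM with bicuculline, without overlap, a log2 fold change of 1.12 ± 0.09 (adjusted p = 1.87e-08). Its share of the ephrin-B level grew accordingly, and Efnb3, which itself did not pass the test (log2 fold change -0.02 ± 0.08), made up 61.5% of the class with bicuculline instead of 76%.

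Efna2 (chr10:80179482-80190010, plus strand) is also a lipid-anchored ligand of EphA receptors, and it moved the opposite way to Efna5. Its baseline libraries stood at 21.7, 18.1, 14.3 and 17.4 CPM, and the stimulated ones at 4.88, 6.6, 8.1 and 6.28 CPM. The groups were well separated, and the log2 fold change of -1.46 ± 0.16 (adjusted p = 1.35e-06) was the lowest of the set. The other abundant ephrin-A, Efna3, averaged 72.9 ± 8.99 CPM in stimulated libraries and 90.7 ± 6.46 CPM in unstimulated ones, a log2 fold change of -0.32 ± 0.08 that stayed under the fold threshold.

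Of the Eph receptors, 3 rose. Ephb3 (chr16:21204755-21223305, plus strand), a receptor for ephrin-Bs, was at 13.8, 16.7, 16 and 11.7 CPM in baseline and at 21.3, 32.4, 30.2 and 26.4 CPM with bicuculline, a log2 fold change of 0.92 ± 0.14 (adjusted p = 5.18e-05). Epha3 (chr16:63543534-63864175, minus strand), which binds Efna5 and Efna2 with high affinity, was at 16.3, 12.5, 14.9 and 17.9 CPM against 26.5, 23, 27.1 and 24.8 CPM, a log2 fold change of 0.72 ± 0.11 (adjusted p = 3.71e-05). In neither receptor did the groups overlap, and on the log2(TPM + 1) scale Epha3 lay just under the fold threshold (0.49).

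Epha2 (chr4:141301240-141329384, plus strand), better known from epithelia and tumours, was scarce. It had 1.02, 1.51, 1.22 and 0.876 CPM in baseline and 1.94, 2.09, 2.47 and 1.86 CPM with bicuculline, a log2 fold change of 0.85 ± 0.21 (adjusted p = 0.00294). These groups did not overlap in CPM, but the call was lost on the log2(TPM + 1) scale, where its log2 fold change was lower (down to 0.16 over the TPM settings). The summed level of the 7 endothelial and mural markers was 9.27 to 13.1 CPM in baseline and 11.4 to 15.8 CPM with bicuculline, and its part in this low signal was not tested.

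Ephb2 (chr4:136647539-136835988, minus strand), the EphB receptor that associates with NMDA receptors at synapses, fell from 79.3, 75.5, 72.8 and 79 CPM to 55.7, 55.4, 49.5 and 51.9 CPM. The 4 stimulated libraries all lay under the baseline libraries, with a log2 fold change of -0.53 ± 0.07 (adjusted p = 4.77e-06). Without replicate 3 of Control-shRNA with bicuculline the log2 fold change was -0.50 and just under the fold threshold. Of the most abundant Eph receptors, Epha5 averaged 223 ± 15.1 CPM unstimulated and 243 ± 14.8 CPM stimulated (log2 fold change 0.13 ± 0.11), and Epha4 was 187 ± 29.5 and 135 ± 14.9 CPM (-0.46 ± 0.15, adjusted p = 0.0178). Epha4 stayed under the fold threshold, but it was called lower with scaling by library size alone (-0.62) and on log2(TPM + 1) (-0.62).

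The netrin receptors of the Unc5 family, which mediate repulsion, divided. Unc5a (chr13:54949411-55006018, plus strand) stood at 140, 137, 123 and 117 CPM in baseline and at 74.1, 87.1, 77.6 and 70.7 CPM with bicuculline, a log2 fold change of -0.74 ± 0.09 (adjusted p = 2.14e-06). Unc5b (chr10:60762593-60831581, minus strand) stood at 9.58, 6.98, 7.58 and 8.76 CPM and at 13.1, 20, 18.3 and 19.6 CPM, a log2 fold change of 1.11 ± 0.15 (adjusted p = 1.02e-05). Both pairs of groups were free of overlap. As Unc5a was far the more abundant, the summed Unc5 level went from 116.1 ± 3.51 TPM to 81.1 ± 5.25 TPM, and Unc5a's share of it from 66.2% to 48.8%. TPM values carry no TMM scaling. On log2(TPM + 1) the median over all genes moved by -0.14 in this comparison, and the lower sum includes that shift. The remaining receptors Unc5c and Unc5d had log2 fold changes of 0.31 ± 0.17 and 0.09 ± 0.09 and did not pass the test.

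No Slit, Robo, netrin or netrin-G was called in this comparison. Slit1 averaged 150 ± 3.3 CPM unstimulated and 159 ± 10.8 CPM stimulated, and the log2 fold changes of the 3 Slits were 0.09 to 0.16 and those of the 3 tested Robos -0.34 to 0.11. Ntn1 was 9.26 ± 2.23 and 12.1 ± 3.1 CPM (0.39 ± 0.20), and Ntng2 was 108 ± 8.19 and 129 ± 18.9 CPM (0.25 ± 0.09). The same-numbered libraries of both groups deviated together, and with the replicate number as a block 2 further members passed, the scarce Ephb4 (0.51, adjusted p = 0.0187) and Efna1 (-0.80, adjusted p = 0.0338). Both overlapped between the groups in CPM.

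Markers of GABAergic neurons moved with the stimulus as well. The summed level of Gad1, Gad2, Slc32a1, Dlx1 and Dlx2 was 1257 to 1602 CPM in Control-shRNA baseline and 1853 to 2328 CPM with bicuculline, and 3 of these 5 genes were called higher. The sum of 5 excitatory markers was 2374 to 2612 CPM and 2313 to 2535 CPM, with 2 genes called higher and 1 lower. None of the 8 astrocyte markers was called. Of 6 neuronal markers 1 was called lower. Of 6 tested endothelial and mural markers 1 was called higher, as was 1 of 5 fibroblast and meningeal markers. The counts called in these lists were the same in Dnmt3a1-shRNA2. The part of these marker changes in the guidance gene differences was not tested.

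In the cells with Dnmt3a1-shRNA2, the bicuculline response was asked again in libraries that shared none with the comparison above. Bicuculline raised Efna5, Efnb2, Unc5b, Ephb3, Epha2 and Epha3 and lowered Efna2, Unc5a and Ephb2 here too, and it raised Unc5c in addition. In all 7 members were called higher and 3 lower, where 12.6% of all genes were called higher and 13.2% lower. The median log2 fold change of the members was 0.05, against -0.01 over all genes, and the median absolute change was 0.34 against 0.30. With scaling by library size alone 6 members were called higher and 5 lower. Without the fold threshold 11 were called higher and 5 lower. Slit2 (0.45 ± 0.12, adjusted p = 0.00534) and Epha6 (0.45 ± 0.16, adjusted p = 0.028) rose without overlap but stayed under the fold threshold. Both were called higher without Dnmt3a1-shRNA2 baseline replicate 1 (0.52 and 0.54). The scarce Ephb4 missed the adjusted threshold (0.58 ± 0.24, adjusted p = 0.0558) and was called higher by DESeq2 (0.61), with DESeq2's size factors (0.61), with at least 10 counts in every library (0.60), in a fit of the 2 groups alone (0.60) and with the replicate block (0.57).

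Efna5 rose from 16.6, 15.8, 20.6 and 17.4 CPM to 44.8, 45.8, 45.3 and 37.4 CPM, a log2 fold change of 1.30 ± 0.09 (adjusted p = 4.4e-09). Efnb2 rose from 123, 121, 137 and 125 CPM to 294, 265, 222 and 271 CPM (1.06 ± 0.09, adjusted p = 2.71e-08). Stimulated and baseline libraries did not overlap for either ephrin. The receptors Ephb3, Epha2 and Epha3 had log2 fold changes of 0.93 ± 0.14, 0.96 ± 0.20 and 0.74 ± 0.11, and Unc5b of 0.89 ± 0.15, again without overlap. As in the control cells, Epha2 was not called on the log2(TPM + 1) scale.

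On the falling side, Efna2 went from 8.33, 9.38, 6.29 and 9.73 CPM to 2.81, 3.07, 2.92 and 3.88 CPM, a log2 fold change of -1.41 ± 0.18 (adjusted p = 4.04e-06). Unc5a went from 178, 179, 145 and 172 CPM to 84.2, 73.3, 90 and 81.9 CPM (-1.03 ± 0.09, adjusted p = 3.08e-08). Ephb2 went from 96.8, 88.9, 81 and 99.4 CPM to 61.4, 56.4, 56.4 and 58.1 CPM (-0.66 ± 0.07, adjusted p = 2.93e-07). None of the 3 overlapped between the groups.

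Unc5c (chr3:141465216-141834924, plus strand), a further repulsive netrin receptor, was, among the bicuculline comparisons, the member called in 1 shRNA condition alone. Its libraries stood at 88.2, 52.1, 61.3 and 83.1 CPM in baseline and at 129, 89.5, 87.9 and 102 CPM with bicuculline. The stimulated libraries were higher on the whole, but replicate 3 with bicuculline lay just under the highest baseline library. Its log2 fold change was 0.52 ± 0.17 (adjusted p = 0.0203). The call was lost on the TPM scales and with scaling by library size alone. It was also lost without Dnmt3a1-shRNA2 baseline replicate 2 or 3 or replicate 1 with bicuculline. Over these settings the log2 fold change went as low as 0.34. The interaction value of Unc5c was 0.21 ± 0.24, with an adjusted p of 1, so its response was not shown to differ between the shRNAs. GABAergic marker sums were 985 to 1282 CPM in baseline and 1580 to 2084 CPM with bicuculline, and their part was not tested.

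**Figure D2:**
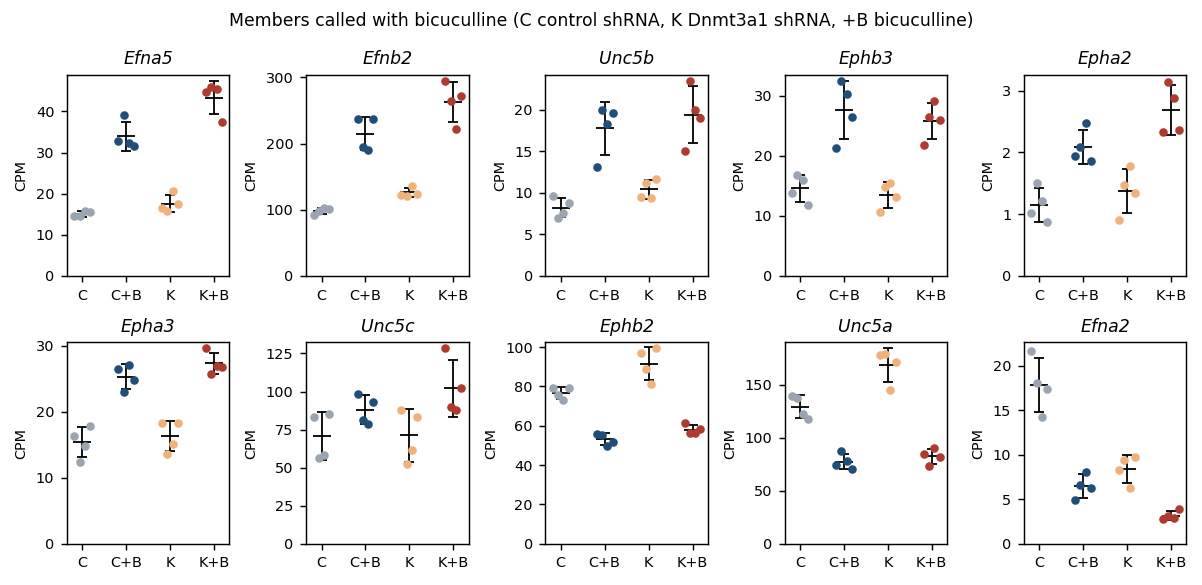
CPM of the 10 members called in either bicuculline comparison, with 1 point per library (replicates 1 to 4 from left to right) and bars for mean ± SD over 4 libraries. C is Control-shRNA, K is Dnmt3a1-shRNA2 and +B is 4 h of bicuculline; within each shRNA the stimulated points lie above the baseline points in the panels from Efna5 to Epha3 and below them for Ephb2, Unc5a and Efna2, and they overlap for Unc5c.

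The next comparison asked how the knockdown of Dnmt3a1 changed the set in unstimulated cultures. It lowered Epha5, the leading EphA receptor, the netrin receptor Dcc and the ephrin Efna2, and it raised Neo1, the paralogue of Dcc, and the ephrin-Bs Efnb1 and Efnb3. With 3 members called higher and 3 lower among 37, the set compared with 1.76% of all genes called higher and 4.07% called lower. The members' median log2 fold change was 0.14, against 0.01 over all genes, and their median absolute change was 0.34 against 0.17. With scaling by library size alone 1 member was called higher and 4 lower, and on log2(TPM + 1) none was called higher and 4 lower. The 2 knockdown comparisons and the 2 bicuculline comparisons draw on the same 4 groups, so a library that sets a value in one also enters another.

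Epha5 (chr5:84054761-84417382, minus strand) is a receptor for ephrin-As that is largely confined to the nervous system. In baseline it stood at 213, 210, 225 and 243 CPM in Control-shRNA and at 103, 68.9, 96.3 and 103 CPM in Dnmt3a1-shRNA2. The groups lay far apart, with a log2 fold change of -1.26 ± 0.11 (adjusted p = 6.6e-07), the lowest estimate of the set with the knockdown. It no longer led its family, whose sum went from 258.7 ± 18.4 TPM to 182.8 ± 23.9 TPM. Epha4 had the highest mean instead, with 27% of that sum, but its range (36.0 to 57.3 TPM) overlapped that of Epha7 (41.3 to 50.8 TPM). On log2(TPM + 1), without TMM scaling, the median over all genes moved by -0.08 here, and the lower sum includes that shift. Epha4 itself was 187 ± 29.5 CPM and 136 ± 31.8 CPM (-0.46 ± 0.15, adjusted p = 0.0432), with overlap, and stayed under the fold threshold. It was called lower with scaling by library size alone (-0.54), on log2(TPM + 1) (-0.54), and without Control-shRNA baseline replicate 2 or 3 or Dnmt3a1-shRNA2 baseline replicate 1 or 4 (-0.52 to -0.57).

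Dcc, the receptor through which netrin-1 attracts axons, stood at 78.8, 54.3, 63.5 and 79.5 CPM in Control-shRNA and at 37.3, 23.5, 28.5 and 34.8 CPM after the knockdown. All knockdown libraries lay under all controls, with a log2 fold change of -1.15 ± 0.16 (adjusted p = 0.000107). Efna2 was at 21.7, 18.1, 14.3 and 17.4 CPM and at 8.33, 9.38, 6.29 and 9.73 CPM, also without overlap, a log2 fold change of -1.08 ± 0.16 (adjusted p = 0.000162).

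Neo1 (chr9:58874687-59036441, minus strand) encodes neogenin, which binds netrins and repulsive guidance molecules. Its libraries were at 215, 200, 197 and 208 CPM in Control-shRNA and at 348, 275, 282 and 326 CPM in Dnmt3a1-shRNA2, without overlap (log2 fold change 0.59 ± 0.08, adjusted p = 8.24e-05). The DCC family thus changed in makeup, from 84.7% Neo1 to 94.8% by TPM. On the TPM scales the change of Neo1 was under the fold threshold.

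Efnb3 (chr11:69554092-69560205, minus strand), an ephrin-B of cortical and hippocampal neurons, was at 289, 318, 286 and 286 CPM in Control-shRNA and at 426, 486, 369 and 418 CPM after the knockdown (0.53 ± 0.08, adjusted p = 0.000145). Efnb1 (chrX:99136130-99148991, plus strand) was at 17, 19.5, 16.9 and 15.2 CPM against 24.8, 29, 19.4 and 24.8 CPM (0.51 ± 0.12, adjusted p = 0.00805). The ranges did not overlap for Efnb3 and overlapped for Efnb1 through Control-shRNA replicate 2 and Dnmt3a1-shRNA2 replicate 3. Both calls sat close to the fold threshold. They were lost on the TPM scales, with scaling by library size alone and without Dnmt3a1-shRNA2 baseline replicate 2. That of Efnb1 was also lost in a fit of the 2 groups alone and without Control-shRNA baseline replicate 4. Over these settings the log2 fold change went as low as 0.40 for Efnb3 and 0.36 for Efnb1. Efna3 lay just outside the threshold, at 0.47 ± 0.08 (adjusted p = 0.000532), with 126 ± 8.29 CPM against 90.7 ± 6.46 CPM and no overlap.

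With bicuculline in both arms, the knockdown again lowered Epha5, Efna2 and Dcc and raised Neo1. This made 1 member higher and 3 lower, where 2% of all genes were called higher and 3.9% lower. The median log2 fold change of the members was 0.13, against -0.01 over all genes, and the median absolute change was 0.23 against 0.19. No member was called higher and 3 were called lower with scaling by library size alone, with voom and limma, with the replicate block and on both TPM scales.

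Epha5 was at 256, 230, 231 and 256 CPM in stimulated Control-shRNA libraries and at 137, 109, 104 and 121 CPM in stimulated Dnmt3a1-shRNA2 libraries, a log2 fold change of -1.05 ± 0.11 (adjusted p = 4.84e-06). Efna2 was at 4.88, 6.6, 8.1 and 6.28 CPM against 2.81, 3.07, 2.92 and 3.88 CPM (-1.03 ± 0.18, adjusted p = 0.00076). Dcc was at 68.8, 46.8, 50.9 and 52.7 CPM against 39.7, 27.2, 28.3 and 33.2 CPM (-0.77 ± 0.16, adjusted p = 0.00336). Every knockdown library lay under every control library for these 3 genes.

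Neo1 was at 194, 201, 197 and 206 CPM against 330, 278, 260 and 267 CPM (0.51 ± 0.08, adjusted p = 0.000342). The groups did not overlap, but the value lay at the fold threshold. The call was lost without replicate 1 of either stimulated group (as low as 0.42). It was also lost under 5 of 10 other analysis settings, among them voom with limma, the study's own method, and the replicate block. Efnb3 was at 407 ± 19.3 CPM against 291 ± 23.4 CPM, without overlap, and at 0.48 ± 0.08 (adjusted p = 0.000349) it stayed under the threshold. The EphA family was led by Epha5 with 38.1% of the summed level in the stimulated controls. In stimulated knockdown libraries Epha7 had the highest mean, with 24.3%, but its range (38.9 to 50.6 TPM) overlapped that of Epha5 (36.9 to 41.9 TPM).

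Levels of cell type markers in the knockdown comparisons were as follows. The sum of 6 neuronal markers was 5500 to 6197 CPM in Control-shRNA baseline and 5923 to 7072 CPM in Dnmt3a1-shRNA2 baseline, with 1 called higher. In the stimulated libraries that sum was 6189 to 6579 and 6478 to 7314 CPM, with none called. Astrocyte marker sums were 701 to 903 CPM in Control-shRNA baseline and 714 to 1043 CPM in Dnmt3a1-shRNA2 baseline, and 1 of 8 markers, S100b at about 1 CPM, was called higher. In baseline 2 of the 6 tested endothelial and mural markers, Tek and Pdgfrb, were called higher at 0.381 and 2.54 CPM after the knockdown, and the microglial Csf1r was called lower at 1.81 CPM. The excitatory marker sum was 2374 to 2612 CPM in Control-shRNA baseline and 2116 to 2343 CPM after the knockdown, with no marker called. The GABAergic sum was 1257 to 1602 CPM in Control-shRNA baseline and 985 to 1282 CPM after the knockdown, and the sum of 5 fibroblast and meningeal markers was 50.6 to 82.4 and 59.8 to 101 CPM, with no marker of either list called. In the stimulated libraries of Control-shRNA and Dnmt3a1-shRNA2 the GABAergic sums were 1853 to 2328 and 1580 to 2084 CPM, the excitatory sums 2313 to 2535 and 2024 to 2355 CPM, and the astrocyte sums 701 to 950 and 849 to 1084 CPM. The fibroblast and meningeal sums there were 56.5 to 109 and 81.2 to 121 CPM, and the endothelial and mural sums 11.4 to 15.8 and 14.9 to 18.3 CPM. Between these stimulated groups S100b, Tek and Lum were called higher and Csf1r lower after the knockdown, and no GABAergic or excitatory marker was called. Microglial sums were 3.43 to 4.51 CPM against 1.89 to 3.04 CPM in baseline and 3.54 to 4.91 CPM against 2.55 to 3.14 CPM with bicuculline. Their part in the guidance gene differences was not tested.

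**Figure D3:**
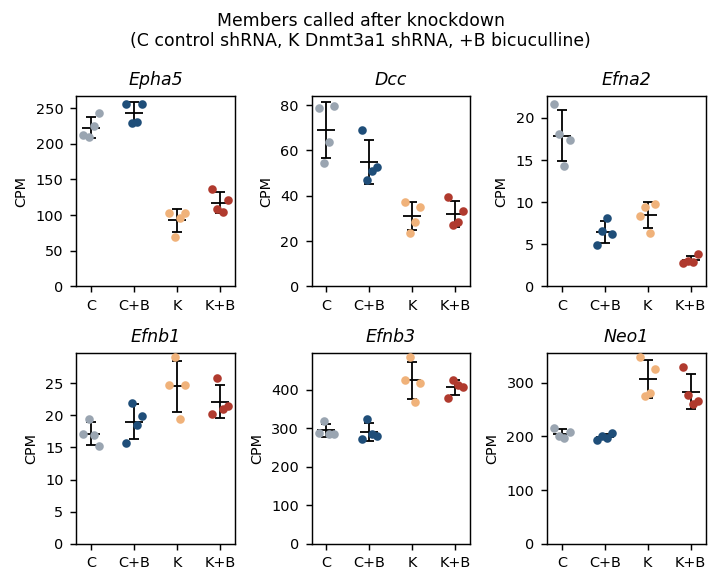
CPM of the 6 members called in either knockdown comparison, with 1 point per library (replicates 1 to 4 from left to right) and bars for mean ± SD over 4 libraries; C is Control-shRNA, K is Dnmt3a1-shRNA2 and +B is 4 h of bicuculline. The K points of Epha5, Dcc and Efna2 lie under the C points of the same condition, and those of Neo1 and Efnb3 lie above them.

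Whether the knockdown changed the response to bicuculline was tested directly by the interaction. No member passed, and neither did any of the 17222 genes in edgeR (0%). Before adjustment 852 of the 17222 genes were under 0.05 in edgeR, as were 2 of the 37 tested members. Both are about the share that such a threshold passes where nothing differs. The 2 members were Ntng2 (-0.33 ± 0.13, adjusted p = 0.93 in edgeR) and Unc5a (-0.29 ± 0.12, adjusted p = 0.957 in edgeR). DESeq2 called 17 genes and edgeR with the replicate block 3, none of them a member. Ntng2 was at 108 ± 8.19 and 129 ± 18.9 CPM in Control-shRNA without and with bicuculline, and at 119 ± 1.93 and 112 ± 13.2 CPM in Dnmt3a1-shRNA2.

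The bicuculline responses of both shRNA conditions, which share no library, can be set beside each other gene by gene. Over the 37 members their log2 fold changes had a Pearson's r of 0.944, and 32 had the same sign, while over all 17222 genes r was 0.882. The knockdown effects in baseline and with bicuculline, which also share no library, had an r of 0.918 over the members, with 35 of the same sign, and 0.554 over all genes. These are descriptions across genes, which are not independent replicates. Same-numbered libraries of different groups may also be linked. A value of r grows with the spread of the changes, so those of the members and of all genes are not alike. For the knockdown in baseline the median absolute log2 fold change was 0.34 for members and 0.17 over all genes. Epha5, Efna2 and Dcc lay apart from the other members, and r without them was not computed. Efna2 is the member called in all 4 pairwise comparisons, and its means descended from 17.9 CPM in Control-shRNA baseline to 8.43 CPM in Dnmt3a1-shRNA2 baseline, 6.46 CPM in stimulated Control-shRNA and 3.17 CPM in stimulated Dnmt3a1-shRNA2, the middle 2 of which overlapped in range. Its interaction value was 0.06 ± 0.24 on the log2 scale.

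**Figure D4:**
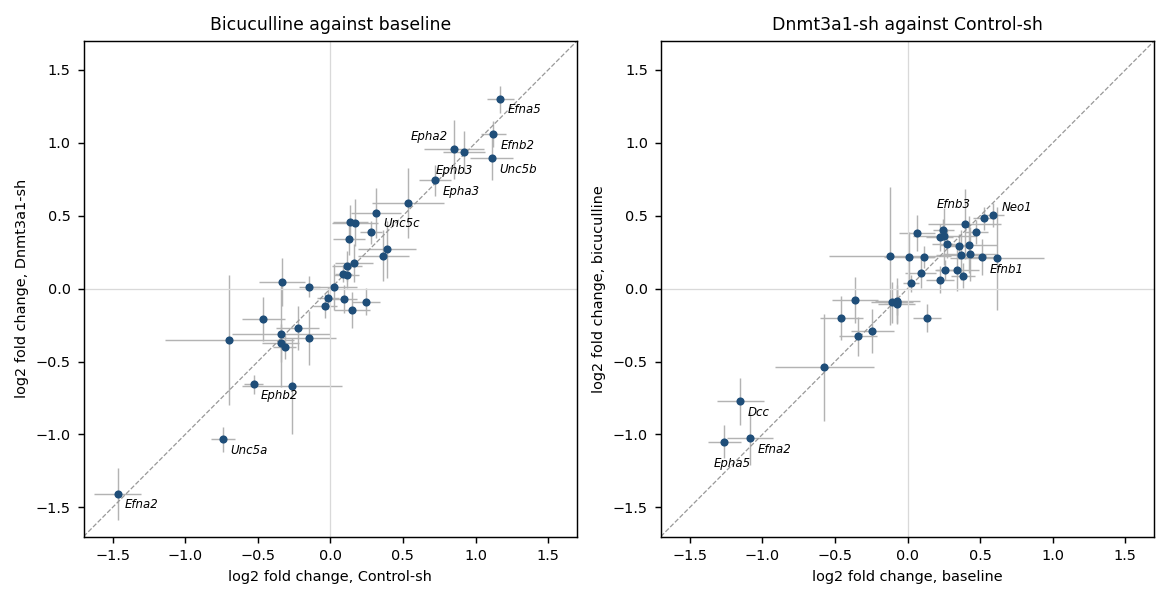
Log2 fold changes of the 37 tested members with their standard errors, bicuculline against baseline in both shRNA conditions (left) and Dnmt3a1-shRNA2 against Control-shRNA in both activity conditions (right); called members are named and the dashed line marks equal values. Efna5 and Efnb2 lie at the upper right and Efna2 at the lower left of the left panel, while Epha5, Efna2 and Dcc lie apart from the rest at the lower left of the right panel.

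**Figure D5:**
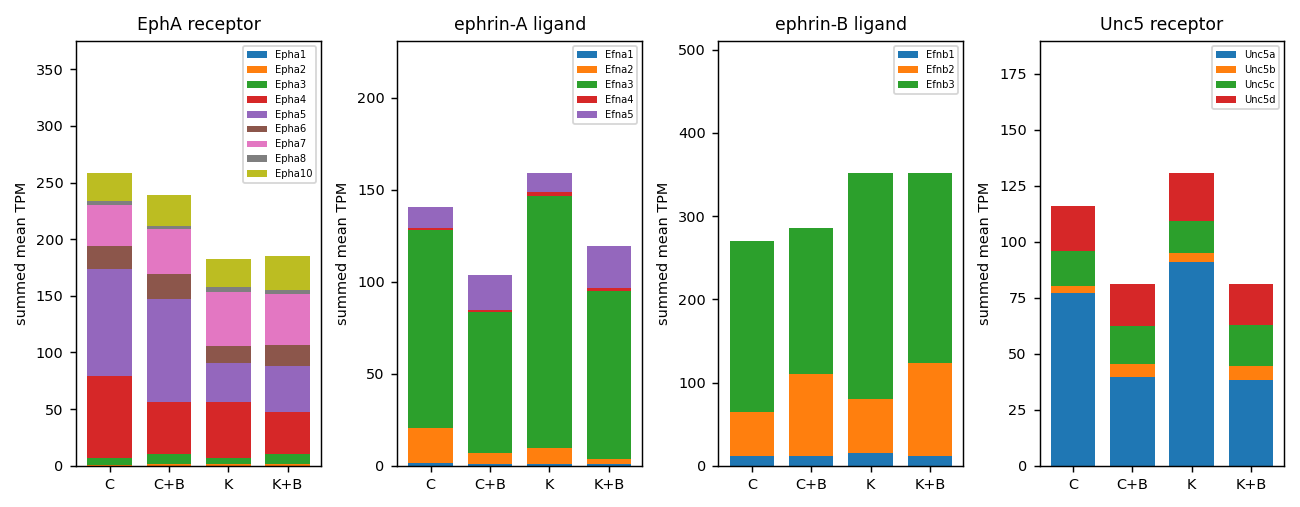
Summed mean TPM of 4 families in the 4 groups, stacked by member (C is Control-shRNA, K is Dnmt3a1-shRNA2, +B is 4 h of bicuculline). The Epha5 block shrinks from 94.5 to 34.1 TPM between C and K, the Efnb2 block grows from 52.8 to 98.5 TPM between C and C+B, and the Unc5a block shrinks from 76.9 to 39.6 TPM. TPM carries no TMM scaling, so block heights between groups differ from the changes in CPM.

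Promoters of the members were read from RefSeq (GRCm38.p6) to show the sequence upstream of the genes that moved. Of the 39 members 34 had an entry, with 39 start sites in all, and the window searched ran from 250 bases before to 50 bases after each start. The cAMP response element TGACGTCA, bound by CREB, was searched on both strands, as was its core TGACG where it was not part of a full element, the AP-1 sites TGAGTCA and TGACTCA, the Egr sites GCGTGGGCG and GCGGGGGCG, and the CArG box of SRF. The full cAMP response element was found in 1 of 39 member promoters (2.56%) and in 1.79% of 32851 promoters, and the core in 15.4% and 19.5%. The AP-1 sites were in none of the member promoters and in 5.2% of all, the Egr sites in 10.3% and 3.47%, and the CArG box in 2.56% and 1.63%. A full or core cAMP response element stood in 4 of the 7 members called higher with bicuculline in either condition, in 0 of the 3 called lower and in 3 of the 24 others. The 4 include Unc5c, whose call was lost in several settings. The shares among all genes called higher or lower were not counted, so these counts have no background and no link to the response was tested. All the hits are matches of letters and no evidence of binding.

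The promoters of Epha2, Ephb3 and Efnb2 are printed because these genes rose with bicuculline in both shRNA conditions and hold such a match. The bases before the start site are given 5′ to 3′ on the strand of the gene, with the match in capitals, for chr4:141300971-141301220 (Epha2, plus strand), chr16:21204545-21204794 (Ephb3, plus strand) and chr8:8661243-8661492 (Efnb2, minus strand). Epha2 carries the full palindrome from base -33 to -26 before the start, Ephb3 the core from -79 to -75 and Efnb2 the core from -110 to -106. Unc5c, which was called with bicuculline in Dnmt3a1-shRNA2 alone, has a core at -79 to -75.
Epha2: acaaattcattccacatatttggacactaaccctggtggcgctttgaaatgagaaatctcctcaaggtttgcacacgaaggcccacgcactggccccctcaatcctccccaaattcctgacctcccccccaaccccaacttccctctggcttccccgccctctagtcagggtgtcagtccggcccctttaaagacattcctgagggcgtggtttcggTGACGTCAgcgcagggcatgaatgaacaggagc
Ephb3: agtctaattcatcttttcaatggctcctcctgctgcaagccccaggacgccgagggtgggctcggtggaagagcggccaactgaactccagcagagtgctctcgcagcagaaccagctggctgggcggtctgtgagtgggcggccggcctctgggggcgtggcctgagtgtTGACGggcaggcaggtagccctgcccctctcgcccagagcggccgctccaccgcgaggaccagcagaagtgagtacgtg
Efnb2: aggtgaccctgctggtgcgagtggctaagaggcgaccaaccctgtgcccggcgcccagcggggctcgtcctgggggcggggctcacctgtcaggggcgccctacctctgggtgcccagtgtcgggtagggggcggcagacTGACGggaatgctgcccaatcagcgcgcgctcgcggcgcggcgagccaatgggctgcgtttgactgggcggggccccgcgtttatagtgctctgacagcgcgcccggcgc

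Dnmt3a methylates cytosines, mainly those followed by guanine (CpG), so CpGs were counted in the upstream windows; methylation itself was not measured in these libraries. The 39 member promoters held 2 to 46 CpGs in 250 bases, with a median of 18, against a median of 6 over all 32851. Among the members called after the knockdown, Epha5 had 20 and Efna2 25, while Neo1 and Efnb1, which were called higher, had 45 and 13. Dcc, also lower in both knockdown comparisons, and Efnb3, called higher in baseline, had no promoter entry. The windows of Epha5 (chr5:84417383-84417632, minus strand) and Efna2 (chr10:80179232-80179481, plus strand), which were lower in both knockdown comparisons, are printed with each CpG in capitals.
Epha5: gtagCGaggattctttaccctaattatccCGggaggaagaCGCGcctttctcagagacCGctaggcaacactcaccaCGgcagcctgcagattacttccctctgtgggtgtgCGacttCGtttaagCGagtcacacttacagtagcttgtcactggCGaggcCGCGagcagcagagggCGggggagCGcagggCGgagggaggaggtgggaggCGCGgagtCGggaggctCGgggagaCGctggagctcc
Efna2: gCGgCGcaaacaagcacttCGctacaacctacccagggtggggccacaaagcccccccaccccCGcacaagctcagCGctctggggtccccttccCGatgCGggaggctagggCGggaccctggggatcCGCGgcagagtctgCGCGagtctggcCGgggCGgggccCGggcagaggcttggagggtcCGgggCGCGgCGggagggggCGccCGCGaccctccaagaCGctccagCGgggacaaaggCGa

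A further readout is the number of estimated counts per TPM, which follows the effective length of the transcripts to which a gene's reads were assigned. It was taken on the log2 scale relative to the median of 14442 genes in the same library, for the 36 members with at least 10 counts in every library, and is given with no test. In 27 of them it moved by at most 0.1 with bicuculline in both shRNA conditions. The gains were greatest for Epha2, from 0.10 ± 0.23 to 0.46 ± 0.21 in Control-shRNA and from 0.06 ± 0.14 to 0.38 ± 0.29 in Dnmt3a1-shRNA2, where the ranges are wide. Ntn1 went from 0.74 ± 0.12 to 0.98 ± 0.09 in Control-shRNA, a difference of 0.25 beside 0.22 in Dnmt3a1-shRNA2, and Ephb2 from 1.38 ± 0.06 to 1.54 ± 0.05, a difference of 0.16 in both. Epha6 went from 0.38 ± 0.02 to 0.28 ± 0.03 and from 0.40 ± 0.04 to 0.29 ± 0.05, and Ntng1, with more spread, from 0.47 ± 0.03 to 0.28 ± 0.15 and from 0.38 ± 0.22 to 0.13 ± 0.14. Efna5 went from 0.23 ± 0.11 to 0.42 ± 0.05 in Control-shRNA and from 0.40 ± 0.07 to 0.41 ± 0.08 in Dnmt3a1-shRNA2. The scarce Robo3 moved in opposite directions, by -0.31 in Control-shRNA and 0.31 in Dnmt3a1-shRNA2, with wide spread. Epha7 and Ephb1 moved by 0.13 and 0.14 in Dnmt3a1-shRNA2 and by 0.01 and -0.03 in Control-shRNA. The files sum the transcripts of a gene, so the transcripts behind these values were not analysed here.

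Signalling partners of these families were followed as a list of 45 genes, of which 44 were tested. In Control-shRNA 6 of them rose and 3 fell with bicuculline, and in Dnmt3a1-shRNA2 5 rose and 2 fell. Over all genes 10.8% were called higher and 11.1% lower in Control-shRNA, and 12.6% and 13.2% in Dnmt3a1-shRNA2. Lrrc4 and Lrrc4c, the postsynaptic ligands of Ntng2 and Ntng1, rose by 1.29 ± 0.07 and 0.56 ± 0.09 on the log2 scale in Control-shRNA and by 1.26 ± 0.07 and 0.53 ± 0.09 in Dnmt3a1-shRNA2, while the related Lrrc4b fell (-0.67 ± 0.11 and -0.90 ± 0.11). Flrt3, a Robo1 and Unc5 partner, rose from 37.2 to 94.7 CPM in Control-shRNA (1.35 ± 0.12) and from 45.7 to 118 CPM in Dnmt3a1-shRNA2 (1.37 ± 0.12). Adam10, the protease that cleaves ephrins, fell from 91.4 to 59.4 CPM (-0.62 ± 0.06) and from 83.3 to 47.3 CPM (-0.82 ± 0.06). The Eph adaptor Anks1 (0.52 ± 0.05) and the phosphatase Ptprj (-0.55 ± 0.07) were called in Control-shRNA, just beyond the fold threshold, and not in Dnmt3a1-shRNA2. This does not show that their responses differed, as no partner passed the interaction test. The actin regulator Enah rose by 0.53 ± 0.09 and 0.81 ± 0.09, and the lipid transfer protein Pitpna by 0.58 ± 0.08 and 0.64 ± 0.08.

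With the knockdown, 4 partners were higher and 2 lower in baseline, and 1 higher and none lower with bicuculline, where the shares of all genes were 1.76% and 4.07% in baseline and 2% and 3.9% with bicuculline. Srgap1, a GTPase-activating protein that acts below Robo, was the partner called in both (0.68 ± 0.08 and 0.60 ± 0.08), at 64.3 against 103 CPM in baseline. In baseline Draxin, a secreted antagonist that binds DCC, was at 5.76 against 10.3 CPM (0.83 ± 0.23), Rgma, a ligand of neogenin, at 57.2 against 96.1 CPM (0.75 ± 0.19), and, named after its value was seen, the ubiquitin ligase gene Trim67 at 69.8 against 103 CPM (0.56 ± 0.09). The kinase Abl2 (-0.54 ± 0.08) and the ubiquitin ligase Siah1a (-0.57 ± 0.08), which targets DCC, were lower. With a fold threshold, a call in baseline and none with bicuculline does not show that the effects differed, and no partner passed the interaction test.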

How the data were processed

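RNA of 16 libraries was sequenced from primary hippocampal cultures, 4 per group, and groups and replicate numbers were taken from the sample labels. The authors trimmed the reads (Trim Galore 0.6.4 per the submitters' processing notes) and quantified transcripts of GRCm38.p6 with kallisto. They deposited, for each library, estimated counts per gene without any scaling. TPM values per gene, which the authors deposited beside them, are scaled for transcript length and library total and served for levels between genes. They also served for family sums and shares, which were set side by side between groups without TMM scaling. Of 55385 identifiers, 55144 were given a symbol by GENCODE release M21. Reads of paralogues can be divided between genes by the quantification.

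Estimated counts were rounded and tested in edgeR 4.0.16 (R 4.3.3) with TMM scaling, edgeR's filter on low counts by group and 1 quasi-likelihood fit of the 4 groups, in which 17222 genes were tested and p-values adjusted by Benjamini-Hochberg over all of them. The study itself used voom with limma, which was run as an alternative. The fit was tested on simulated data. The members and lists were chosen with earlier results of these data known. Members called in any comparison were to be described library by library, up to 15 genes by largest change, and partners by at most 2 per list, direction and comparison. Alternatives were DESeq2 1.42.0 and its size factors, scaling by library size alone, voom with limma 3.58.1, limma on log2(TPM + 1) and log2(TPM + 0.1), other filters and fold thresholds, a fit of only the groups compared, a block for the replicate number and each of 16 libraries left out.

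Same-numbered libraries carry no stated link, so their deviations from group means were correlated over the genes tested. Pearson's r was 0.142 to 0.221 for bicuculline in Control-shRNA and 0.204 to 0.355 for the knockdown in baseline, over 0.1 for every number, which was taken as pairing. It was 0.0631 to 0.337 and 0.0667 to 0.388 in the other 2 comparisons. There replicate 4 alone fell under 0.1, and they were not taken as paired. That cut does not show that their libraries are unlinked. In all 4 groups 6.03% of genes had libraries 1 and 4 above libraries 2 and 3, and 5.48% had them below. The main fit held no block for the replicate number, so its standard errors and p-values leave any pairing out. Within every group, all libraries differed by more than counting noise.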

Additional observations from a re-analysis of the deposited data

Results flagged for a closer look

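In 60 groups of 4 libraries, 15 members in each of 4 groups, 1 library stood apart from the other 3 by Dixon's test at 95% in 3 cases, and chance flags about 1 group in 20. Efna5 was at 39.2 CPM in replicate 2 of stimulated Control-shRNA, where the others were at 31.6 to 32.7 CPM. Efna5 was at 37.4 CPM in replicate 4 of stimulated Dnmt3a1-shRNA2, where the others were at 44.8 to 45.8 CPM. Efnb3 was at 318 CPM in replicate 2 of Control-shRNA baseline, where the others were at 286 to 289 CPM. Leaving out any single library kept Efna5 called in both bicuculline comparisons, with log2 fold changes from 1.09 to 1.19 in Control-shRNA and from 1.25 to 1.39 in Dnmt3a1-shRNA2. Over the other analysis settings its log2 fold changes went as low as 0.72 and 1.05, with the calls kept.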

How the results depend on the processing

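Over the 10 other analysis settings and 16 fits that each left out 1 library, no called member changed direction, and Efna5, Efnb2, Ephb3, Unc5a, Unc5b, Efna2, Epha5 and Dcc kept every call. Over these fits together with no fold threshold and a threshold of 1, the called results stayed called in 765 cases and lost the call in 47. No call could be lost where the fold threshold was dropped. A left-out library of a group not compared entered mainly through the scaling and the shared spread. Without the fold threshold the calls over all genes were 7131 and 7919 for bicuculline in Control-shRNA and Dnmt3a1-shRNA2 and 2809 and 3046 for the knockdown in baseline and with bicuculline, of which 14, 16, 12 and 11 were members. With a threshold of 1 they were 1378, 1681, 175 and 185, of which 4, 4, 3 and 2 were members. For the interaction, DESeq2 called 17 genes, the replicate block 3 and the loosest filter 3. Leaving out 1 library gave 3619 to 3837, 4271 to 4560, 827 to 1122 and 864 to 1152 genes, with 8 to 11, 9 to 13, 4 to 8 and 3 to 5 members, and 0 to 1 for the interaction. Scaling by library size alone moved the median over all genes of the bicuculline log2 fold change to -0.15 in Control-shRNA and -0.16 in Dnmt3a1-shRNA2, with 1365 higher and 3032 lower and 1674 higher and 3433 lower. It gave 159 higher and 960 lower, and 212 higher and 895 lower, for the knockdown. With the replicate block the knockdown with bicuculline, whose numbers were not taken as paired, called 1338 genes and lost Neo1 (0.50). With the same block bicuculline in Dnmt3a1-shRNA2 called 4612 and gained Ephb4 and Efna4. Other settings that gained Ephb4 stand beside that comparison. The block changed no call of a member in the knockdown in baseline, where it called 1284 genes. The causes were not tested. Counts under about 100 per library limit Epha2, Ephb4, Efna1, Efna4 and Robo3, and Efna2 in the stimulated knockdown libraries (71 to 105 counts).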

Other observations

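Some members followed the replicate number, a pattern noticed after their values were seen. In Epha4, Epha7, Unc5c and Dcc, libraries 1 and 4 both lay above libraries 2 and 3 in each of the 4 groups, as they did in 6.03% of all genes tested. In Epha2, Epha8, Ephb1, Ephb3, Ephb4, Ephb6, Ntn1 and Ntng1 they lay below in each group, as in 5.48% of all genes. Epha4, for example, was at 215 and 209 CPM in replicates 1 and 4 of Control-shRNA baseline and at 160 and 162 CPM in replicates 2 and 3. Ephb6 was at 40.5 and 37.4 CPM against 49.3 and 46.7 CPM. Whether a number marks a shared preparation is not stated in the sources used here.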
